A study of Mus musculus with 12 samples.

Results

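RNA was sequenced from hair follicle stem cells (HFSC) and from sorted outer root sheath (ORS) cells of mouse skin, and the 4 libraries of one compartment were compared with the 4 libraries of the other. These 8 libraries are part of a series of 12, and the remaining libraries, which the labels name IFE, enter 1 alternative fit alone. The 8 were taken by their labelled cell type. The title of ORS control E344 lacks the suffix that marks the other ORS titles, so its place rests on the cell type label alone. In each compartment 2 control libraries carry the genotype EGFR_fl_fl, a floxed Egfr allele that is also the starting point of the knockouts. The 2 ORS libraries labelled knockout carry EGFR_delta_ep, and the 2 HFSC libraries labelled knockout carry EGFR_delta_LGR5, so the knockout label stands for a different deletion in each compartment. The labels give no strain, age, sex or hair cycle stage, and they name neither the surface proteins used to sort the cells nor the Cre that deletes Egfr beyond these allele names. The HFSC libraries are named L136 and L94 (controls) and L95 and L97 (labelled knockout), and the ORS libraries E341 and E344 (controls) and E358 and E359 (labelled knockout). Values per library are given below in that order. The labels do not say whether replicate libraries stem from separate animals. The ORS controls differ in sex by their Xist reads (below), and for the other pairs the p-values rest on a spread between libraries that may be technical.

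The outer root sheath is the outermost epithelial layer of the hair follicle and is continuous with the basal layer of the epidermis. Its permanent part holds the bulge, a niche of slowly cycling stem cells that can be recognised by the sialomucin CD34 and by keratin 15, while the lower sheath proliferates and lengthens as a new hair grows. Stem cells in the bulge are kept quiet by bone morphogenetic proteins (BMP) and by WNT antagonists, and the exit from quiescence involves WNT, hedgehog, FGF and TGF-beta signals.

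Levels are given as counts per 1000000 (CPM) of the reads that fall in genes, after scaling by trimmed mean of M values (TMM), and differences as log2 fold changes of HFSC over ORS on the log2(CPM + 0.5) scale with their standard errors (SE). A gene was called at an adjusted p under 0.05, from limma with the genotype label as a term and Benjamini-Hochberg adjustment over 14548 autosomal genes tested, of 24483 autosomal genes and 25965 genes listed. Reads in genes came to 11.5 to 16.8 M (M for 1000000) in HFSC and to 24.7 to 27.7 M in ORS. They were 26.9% to 28.9% of the library total in HFSC and 50.6% to 54.6% in ORS, without overlap, and the 10 most abundant genes took 8.42% to 9.38% and 4.62% to 5.02% of them. Sex was not balanced, since Xist held 5699, 10191, 96 and 19 reads in HFSC and 29, 41490, 43878 and 38267 reads in ORS, and for that reason genes of the X and Y chromosomes were left out. In HFSC the genotype label goes with sex, since both controls are high and both libraries labelled knockout low in Xist. The compartment cannot be told apart from the share of reads in genes, from depth or from the separately named sets of libraries and their alleles, and in bulk RNA fewer cells of a type and less RNA per cell cannot be told apart.

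Egfr, the targeted gene, encodes the receptor for EGF, TGF-alpha and related ligands and lies on chromosome 11 from 16752203 to 16918158 on the + strand (mm10, as listed). Its level was 278, 252, 3.77 and 56.3 CPM in ORS, so both libraries labelled knockout were below both controls, and E359 kept more reads than E358. In HFSC it was 396, 434, 339 and 338 CPM, and the libraries labelled knockout stayed close to the controls. Whole-gene values do not separate the deleted part from the rest, and the EGFR_delta_LGR5 label has no other check here, so the wording "labelled knockout" is kept. Between the compartments Egfr was not called (log2 fold change 2.55, adjusted p = 0.0846), with 377 ± 47 CPM in HFSC and 148 ± 138 CPM in ORS (mean ± SD, n = 4 each). The compartments did not overlap in Egfr, and it was called higher in HFSC by limma within the controls alone (0.64, adjusted p = 0.0228) and within the libraries labelled knockout alone (4.45, adjusted p = 0.0399).

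The compartments differed in 5084 of the genes tested (34.9%), of which 2606 were higher in HFSC (17.9%) and 2478 higher in ORS (17.0%). These shares over all genes are the background for the counts of list members below. The median log2 fold change over all genes tested was 0.04. At least 4-fold differences were more frequent towards HFSC, with 1074 genes against 675, and those of at least 16-fold numbered 227 and 142. The 4 HFSC and 4 ORS libraries did not overlap in 34.6% of the genes tested, which include 4365 of the called genes. Among the genes called higher in HFSC, 182 had no read in any ORS library, and 71 genes called higher in ORS had none in any HFSC library. Scaled to the library total, as the values were deposited, the median over all genes moved to -0.75 and the calls split into 1140 higher in HFSC and 7024 higher in ORS, with 524 of the 5084 calls turned in sign. All directions below are therefore relative to the reads in genes of each library. Where counts of list members on the deposited scale are given below, their background is 1140 and 7024 of 14548 genes.

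**Figure D1:**
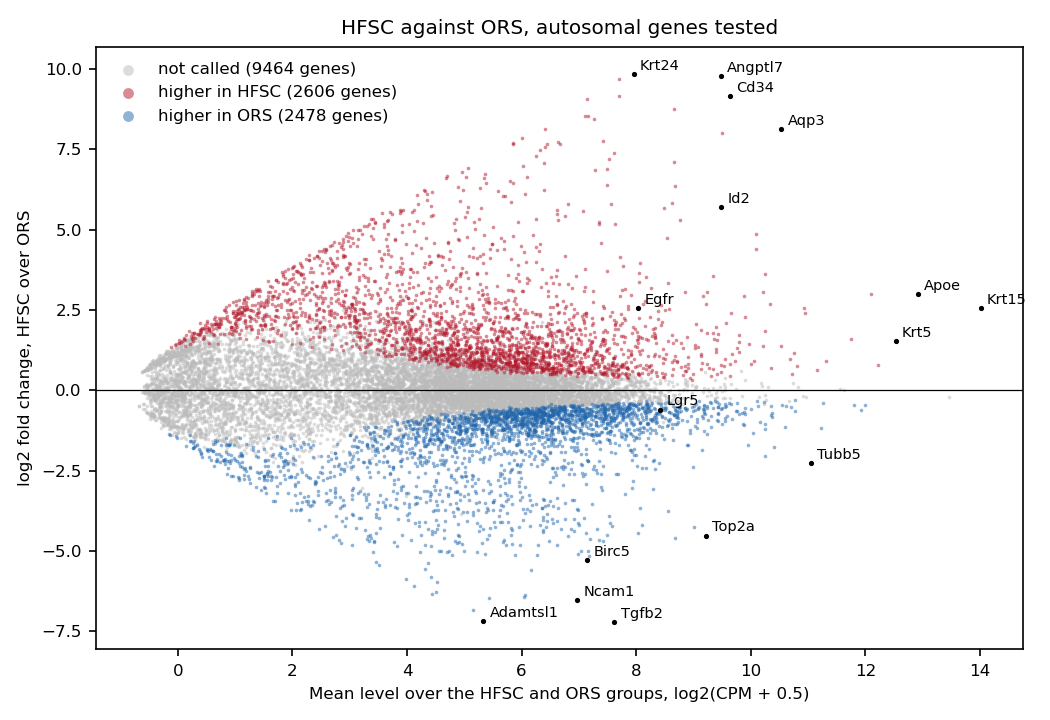
Each point is 1 of 14548 autosomal genes, with the mean level of both compartments on the horizontal axis, as log2(CPM + 0.5), and the log2 fold change of HFSC over ORS on the vertical axis. Red points (2606) were called higher in HFSC and blue points (2478) higher in ORS. The named genes show that the bulge marker Cd34 lies near the top, the mitosis genes Birc5 and Top2a near the bottom, and Lgr5 and Egfr among the genes that were not called.

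The label HFSC was checked against 14 markers of the bulge. Of these, 10 were higher in HFSC and 1 higher in ORS, against 17.9% and 17.0% of all genes. The list was chosen with earlier results of these data known, so the count describes the markers and is no independent test of the label. Their median on the log2 scale was 1.63 against 0.04 over all genes. When the IFE libraries shared the fit, the counts were 7 and 1. Cd34, the sialomucin of bulge cells, lies on chromosome 1 from 194938821 to 194961292 on the + strand and stood at 1365, 2167, 1469 and 1361 CPM in HFSC and at 4.14, 3.14, 0 and 6.0 CPM in ORS. All HFSC libraries were far above all ORS libraries, of which E358 had no read (log2 fold change 9.16 ± 0.62 SE, adjusted p = 3.05e-06). Whether Cd34 or another surface marker was used to sort the cells is not stated, and if it was, its difference is set by the sort. Of the markers set for the label ORS, Lrig1 and Krt17 were higher in ORS. Krt5, Krt14 and Krt75 were higher in HFSC, and Sox9 was not called (values below). These markers thus do not set ORS apart from HFSC in a shared direction.

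Krt15, the keratin that marks the bulge, read 37320.0, 32963, 23707 and 19673 CPM in HFSC and 4247, 4288, 5251 and 5083 CPM in ORS. It was high in both compartments and higher in every HFSC library (log2 fold change 2.55 ± 0.16, adjusted p = 5.97e-07). The growth factor Fgf18, which holds follicles in their resting phase, read 83.9, 99.4, 50.3 and 30.9 CPM in HFSC and was without a read in all 4 ORS libraries, which makes it at least 583-fold higher in HFSC (against 3 reads per library). Postn, a matrix protein, had 3349.8 ± 808 against 558 ± 35.9 CPM and a log2 fold change of 2.55. Cd200, an immune-modulating surface protein of the human bulge, had a log2 fold change of 1.70, and S100a4 and S100a6, calcium-binding proteins, of 3.98 and 1.39. The secreted WNT antagonists Dkk3 and Sfrp1 were higher in HFSC by 1.32 and 1.56 on the log2 scale, and both calls were lost on the deposited scale.

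Lgr5, an R-spondin receptor and a stem cell marker of the lower bulge, did not separate the compartments. Its level was 134, 339, 361 and 291 CPM in HFSC and 345, 348, 502 and 421 CPM in ORS. The groups overlapped, with L136 the lowest of the 8 and E358 the highest (log2 fold change -0.60 ± 0.23, adjusted p = 0.0624). Npnt, the nephronectin that anchors the arrector pili muscle to the bulge, was also not called (241 ± 101 against 232 ± 47.6 CPM), nor was the WNT antagonist Wif1. Tnc, tenascin C, was the 1 marker higher in ORS (294 ± 47.3 against 481 ± 94.6 CPM, log2 fold change -0.71). The Tnc call was lost within the controls alone and within the libraries labelled knockout alone. All 14 markers had reads in the HFSC libraries, and the ORS libraries also held Krt15 and Lgr5 at levels far above 3 reads.

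Of 17 transcription factors that specify follicle stem cells 4 were higher in HFSC and 5 higher in ORS (all genes: 17.9% and 17.0%). The median was -0.12, and on the deposited scale the counts were 1 and 12. Sox9 read 1954, 1769, 2022 and 1590.1 CPM in HFSC and 1981, 2045, 3021 and 1679 CPM in ORS, and Lhx2 265, 399, 284 and 293 and 235, 269.6, 327 and 248 CPM. Both overlapped between the compartments and were not called (adjusted p = 0.309 and 0.388). Foxp1, a forkhead factor that restrains stem cell division, was higher in HFSC at 846 ± 61.8 against 203 ± 45.9 CPM (log2 fold change 2.08, adjusted p = 1.32e-06). Nfatc1, a factor of quiescent bulge cells, was higher in ORS at 485 ± 67.7 against 217 ± 22.1 CPM (log2 fold change -1.15), and the WNT-pathway repressor Tcf7l1 was higher in ORS by -1.48 on the same scale. Trps1 (-1.22), Nfib (-0.63) and Barx2 (-0.67) made up the rest of the 5. The Tcf7l1 and Nfib calls were lost within the libraries labelled knockout alone, and the Nfatc1 call when the 4 IFE libraries shared the fit.

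**Figure D2:**
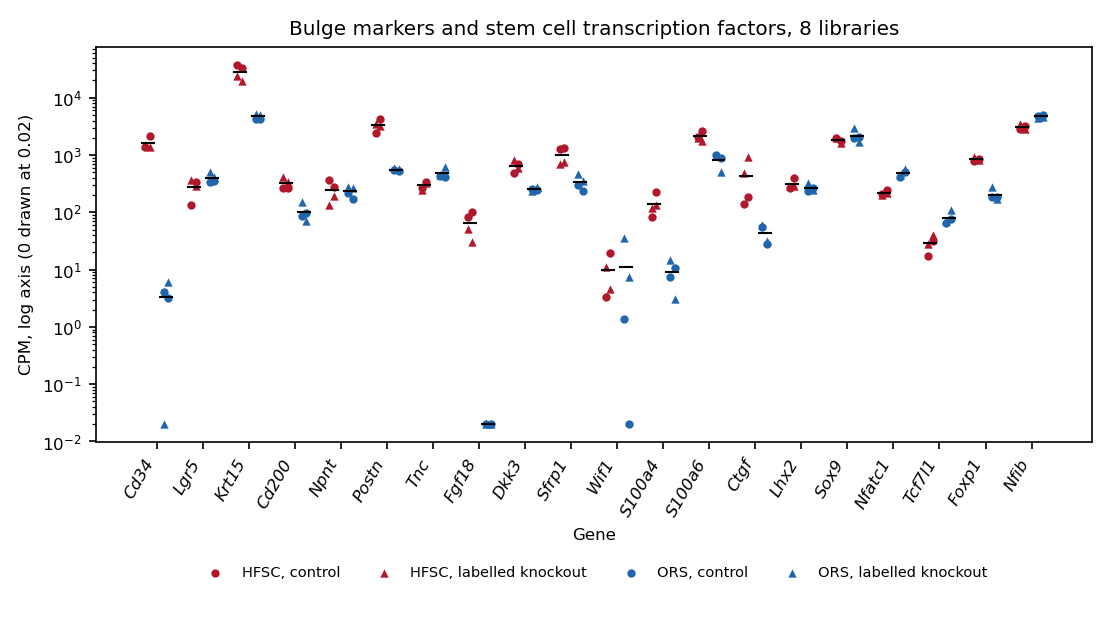
Points are the CPM of each library on a log axis, red for HFSC and blue for ORS, with circles for controls, triangles for libraries labelled knockout and bars for the mean of the 4 libraries; values of 0 are drawn at 0.02. Cd34 and Fgf18 leave a wide gap between the compartments, Krt15 a smaller one at high levels, and Lgr5, Npnt, Wif1, Lhx2 and Sox9 overlap.

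The genes of DNA replication and mitosis all lay higher in ORS. Each of the 28 members tested was called in that direction, against 17.0% of all genes, and the median log2 fold change was -3.59. Mki67, a marker of dividing cells, read 82.1, 34.8, 12.8 and 163 CPM in HFSC and 860.1, 859, 1017 and 1094 CPM in ORS. Top2a, the topoisomerase that untangles replicated chromosomes, read 94.7, 33.3, 9.93 and 161 and 1124, 1018, 1165 and 1129 CPM. The ORS libraries lay close together, whereas the HFSC libraries spread widely between L95, the lowest, and L97, the highest.

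Among the regulators of mitosis, Birc5 (survivin, of the chromosomal passenger complex) had the largest difference of the list at -5.28 ± 0.76, followed by the mitotic cyclin Ccnb1 at -5.15 and the spindle checkpoint kinase Bub1 at -4.79. Cdk1, the kinase that drives entry into mitosis, stood at 19 ± 15.7 CPM in HFSC and 298 ± 67.8 CPM in ORS (-4.31 ± 0.52). For DNA synthesis, the helicase subunits Mcm2 to Mcm7 ran from -3.59 (Mcm3) to -1.55 (Mcm7), and the nucleotide-supplying enzymes Tyms, Rrm1 and Rrm2 had -2.61, -2.43 and -1.83. Pcna, the sliding clamp, read 38, 29.1, 24.1 and 37 CPM in HFSC and 139, 138, 165 and 121 CPM in ORS, without overlap (-2.13, adjusted p = 1.31e-05). Leaving out 1 library at a time kept 27 or 28 of the 28 calls, the control libraries alone gave 27, and the libraries labelled knockout alone gave 21.

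**Figure D3:**
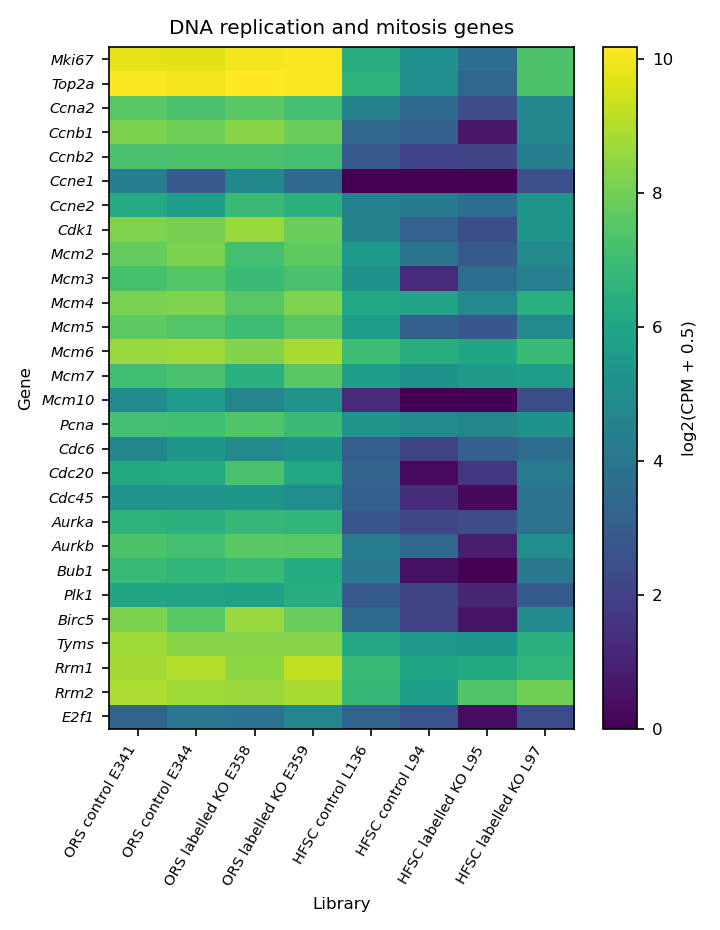
The heat map shows log2(CPM + 0.5) of the 28 DNA replication and mitosis genes (rows) in the 4 ORS and 4 HFSC libraries (columns), with yellow for high and dark blue for low levels. The ORS columns are brighter in all 28 rows, and among the HFSC columns L95 is darkest and L97 brightest in many rows.

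Genes of this kind move together, so the letters upstream of their start sites were read. The RefSeq table of promoters (GRCm38.p6, the same build as mm10) matched 9655 of the genes tested and 24 of the 28, and the 250 bases before each start were searched on both strands. CCAAT, the box bound by NF-Y, was found in 19 of the 24 list members against 36% of all matched genes. TTTGAA, a cell cycle homology region, was in 7 of them against 10.4%. The E2F letters TTTCCCGC and TTTGGCGC were each in 2, against 1.60% and 0.818%. The promoters of Cdk1, Mki67 and Mcm6 are shown because they carry these letters. Mcm6 is not among the larger differences of the list, at -3.00 to -1.82 over the refits against a list median of -3.59. Capitals mark the matches on either strand. The box CCAAT reads ATTGG where it lies on the opposite strand, and none of the motifs searched contains another.
Cdk1, chr10:69352913-69353162, minus strand: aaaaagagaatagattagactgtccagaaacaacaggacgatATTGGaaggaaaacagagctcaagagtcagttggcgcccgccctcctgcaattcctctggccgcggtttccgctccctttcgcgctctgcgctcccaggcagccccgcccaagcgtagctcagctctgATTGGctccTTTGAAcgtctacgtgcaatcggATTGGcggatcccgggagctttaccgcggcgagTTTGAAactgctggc
Mki67, chr7:135716380-135716629, minus strand: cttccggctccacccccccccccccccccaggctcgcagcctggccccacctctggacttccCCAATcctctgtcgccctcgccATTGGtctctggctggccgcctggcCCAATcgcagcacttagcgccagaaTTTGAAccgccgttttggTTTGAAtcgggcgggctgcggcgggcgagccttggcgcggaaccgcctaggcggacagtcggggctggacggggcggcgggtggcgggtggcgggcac
Mcm6, chr1:128359706-128359955, minus strand: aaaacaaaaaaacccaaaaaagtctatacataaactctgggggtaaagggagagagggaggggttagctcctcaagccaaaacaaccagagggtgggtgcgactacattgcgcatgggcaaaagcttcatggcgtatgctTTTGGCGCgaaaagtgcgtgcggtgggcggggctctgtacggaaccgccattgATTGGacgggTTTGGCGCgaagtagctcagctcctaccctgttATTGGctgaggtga
In Cdk1 the CCAAT letters begin at -208, -80 and -48 from the start site and TTTGAA at -71 and -15. The Mki67 window holds CCAAT at -188, -166 and -141 and TTTGAA at -116 and -98. In Mcm6 TTTGGCGC begins at -110 and -47 and CCAAT at -57 and -14. Over all matched genes called higher in ORS, CCAAT was in 39.6%, and over those called higher in HFSC in 33.7%. A match describes letters and not binding.

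Cyclin-dependent kinase inhibitors and D-type cyclins were split, with 5 of 15 higher in HFSC and 7 higher in ORS (all genes: 17.9% and 17.0%). On the deposited scale these counts were 1 and 10. Cdkn2b (p15), an inhibitor of CDK4 and CDK6, read 10.2, 13.1, 25.4 and 28.4 CPM in HFSC and no read in any ORS library, at least 169.9-fold higher. The inhibitor Cdkn1b (p27) was higher in HFSC by 1.12 and the pocket protein Rbl2 (p130), of resting cells, by 0.98. The Cdkn1b call was lost on the deposited scale. The Rbl2 call was lost within the controls alone and within the libraries labelled knockout alone. Rbl1 (p107), the relative of Rbl2 in dividing cells, was higher in ORS at -1.96. The D cyclins Ccnd1 and Ccnd2 were higher in ORS at -2.36 and -1.33, and their partners Cdk4 and Cdk6 at -1.15 and -1.63. Ccnd1 read 151, 48.9, 55.1 and 111 CPM in HFSC and 455, 494, 417 and 339 CPM in ORS, without overlap.

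The largest differences towards HFSC, among genes with a mean of at least 20 CPM there, included structural, secreted and receptor genes. Krt24, a keratin of the type I family, read 532, 410.5, 529 and 513 CPM in HFSC, while the ORS libraries held reads in E344 alone, at 0.196 CPM (log2 fold change 9.83 ± 0.31, adjusted p = 3.62e-09). Angptl7, a secreted angiopoietin-like protein, read 1088, 374, 1642 and 2570.1 CPM in HFSC and 2.18, 0.236, 0.377 and 1.23 CPM in ORS. The HFSC libraries differed among themselves, with L94 lowest and L97 highest, and each was far above every ORS library. Col6a1, a chain of collagen VI, read 449.7, 515, 336 and 354 CPM in HFSC and none in ORS, at least 3648-fold higher. Gfra1, the co-receptor for the growth factor GDNF, read 357, 397, 183 and 193 CPM in HFSC and none in ORS, at least 2492-fold higher.

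Aqp3, the water and glycerol channel of keratinocytes, had 2952 ± 607 CPM in HFSC and 12.9 ± 9.41 CPM in ORS (log2 fold change 8.12 ± 0.45). Bhlhe41, a transcriptional repressor of the circadian clock, had 9.15, Dclk1, a doublecortin-like kinase, had 8.52, and Pdzk1ip1, a small membrane protein, had 8.52. Fcgbp, which encodes an Fc-gamma-binding protein of mucus, read 187, 911, 901 and 1229.9 CPM in HFSC, where L136 stood apart from the other 3, and 0, 1.49, 0 and 10.2 CPM in ORS. Cyp2b10, a cytochrome P450, read 368, 88.9, 112 and 103 CPM in HFSC, here with L136 highest, and none in ORS (at least 1483-fold higher). Of the genes that hold the most reads in HFSC and differ at least 2-fold, Apoe, the lipid carrier apolipoprotein E, had 13699 ± 3147 against 1706 ± 312 CPM and Perp, a desmosome protein, 7752 ± 1519 against 982 ± 213 CPM, both with a log2 fold change of 2.99. These ranks by CPM are not corrected for gene length.

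Towards ORS the largest differences were smaller than those towards HFSC and included secreted factors, adhesion molecules and matrix proteins. Tgfb2, a TGF-beta ligand, read 11.8, 2.19, 0 and 2.43 CPM in HFSC and 393, 417, 392 and 349.5 CPM in ORS (log2 fold change -7.20 ± 0.62, adjusted p = 5.94e-06). Ncam1, the neural cell adhesion molecule, read 0.0901, 5.31, 5.52 and 1.85 and 244, 261, 171 and 311 CPM. In both genes every HFSC library was far below the lowest ORS library. Adamtsl1, a secreted ADAMTS-like glycoprotein, had -7.19 and Pcdh20, a protocadherin of cell adhesion, -6.84.

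Sema3a, a secreted semaphorin that repels axons, had no read in HFSC and 37.3, 34.6, 26.1 and 36.7 CPM in ORS, at least 159-fold higher in ORS. Col27a1, a fibrillar collagen, had a log2 fold change of -6.38, Synpo2, an actin-binding protein, of -6.45, and Prss35, a serine protease-like protein, of -6.43. Dio2, the enzyme that activates thyroid hormone, had -5.97 with 44.7 ± 27.8 CPM in ORS, and Hmga2, a chromatin protein of growing tissues, -5.82 with 41.6 ± 7.51 CPM. Zfp618 (-6.35) and Dbc1 (no read in HFSC, 21.5, 49, 19.5 and 32.2 CPM in ORS, at least 144-fold higher) completed the 12. The genes with the most reads in ORS that differed at least 2-fold were Tubb5, a beta-tubulin (752 ± 217 against 3493 ± 159 CPM), the histone variant gene H3f3b (-1.17), the RNA-binding protein gene Hnrnpa2b1 (-1.14), the acidic chromatin proteins Ptma (-2.04) and Set (-1.21), and AC113287.1, listed by a clone name (-1.77). Several of these, among them Tubb5, H3f3b, Ptma and Set, belong to families with close copies, so how the reads were split between the copies is uncertain.

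Of 9 upper follicle markers tested (of 10 listed) 6 were higher in HFSC and 3 higher in ORS (all genes: 17.9% and 17.0%). The stem cell genes of the isthmus, Lrig1 (an ERBB inhibitor) and Lgr6 (a relative of Lgr5), were higher in ORS at -1.84 and -2.70, and so was Prdm1, a transcriptional repressor, at -3.48. Those higher in HFSC were Ly6a (Sca-1) at 3.37, Krt80 at 3.56, the sebaceous duct factor Gata6 at 1.44, Krt79, a keratin of the infundibulum, at 1.12, Defb6, an antimicrobial defensin, at 6.16, and the protease inhibitor Cst6 at 5.30. Lgr6 read 11.8, 7.69, 5.90 and 6.51 CPM in HFSC and 52.9, 58.3, 56 and 44.4 CPM in ORS, without overlap. Ly6a read 13.1, 2.39, 3.60 and 3.96 CPM in HFSC and 0, 0, 0 and 0 CPM in ORS, also without overlap.

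The companion layer lies between the outer and the inner root sheath. Its keratin Krt75 read 123, 66.6, 83.5 and 104 CPM in HFSC and 3.39, 0.864, 0.0377 and 0.385 CPM in ORS, a log2 fold change of 6.2 ± 0.52. Krt6a, a companion layer and stress keratin whose reads may be shared with the near-identical Krt6b, read 1062, 819.9, 2083 and 1800.4 CPM in HFSC and 11.6, 33.1, 0.943 and 0.808 CPM in ORS. Both genes were higher in every HFSC library. Krt17, a keratin of the outer root sheath itself, was the 1 of the 5 higher in ORS (-0.46, adjusted p = 0.00805), and that call was lost within the libraries labelled knockout. The remaining 2 members, Krt6b and Krt16, are given by the count alone. In all, 4 of the 5 were higher in HFSC and 1 in ORS (all genes: 17.9% and 17.0%). The count of 4 higher in HFSC fell to 2 without ORS E358, without ORS E359 or without HFSC L95.

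Of 8 inner root sheath genes tested (of 10 listed), 4 were higher in HFSC and none in ORS by limma (all genes: 17.9% and 17.0%). At an unadjusted p under 0.05 there were 5, and the median was 1.51. Within the libraries labelled knockout alone 0 of 7 were called. The 4 became 3 without ORS E341, ORS E344, HFSC L136 or HFSC L94, and 6 without HFSC L95. Krt25 had 3.75 and Krt73 2.94, from 0.0268 ± 0.0536 and 1.15 ± 2.31 CPM in ORS, and both calls were lost within the libraries labelled knockout. Among matrix and hair shaft genes, 7 of 16 tested, the homeobox factor Msx2 (4.12) and Foxn1, the factor mutated in nude mice (5.17), were higher in HFSC. No other was called, so 28.6% were called against 34.9% of all genes. Foxn1 read 24.7, 21.3, 41.8 and 37.9 CPM in HFSC and 0.821, 0, 0 and 1.12 CPM in ORS. The hair keratins Krt33a, Krt33b, Krt34, Krt35, Krt36, Krt81, Krt83 and Krt86 had too few reads to be tested.

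Suprabasal epidermal genes moved both ways, with 5 of 13 higher in HFSC and 3 in ORS (all genes: 17.9% and 17.0%). Ivl, the envelope protein involucrin, was higher in HFSC at 3.66, and Sbsn, suprabasin, at 4.87, while Lor, loricrin, was higher in ORS at -3.53. The Ivl and Lor calls were lost within the libraries labelled knockout alone, where 3 genes were higher in HFSC and 0 in ORS. Krt1 and Krt10, the first keratins of the suprabasal layers, were not called; Krt10 read 79.1, 55.8, 32.8 and 31.3 CPM in HFSC and 65.8, 28.1, 41.8 and 37.8 CPM in ORS, with overlap. The summed level of the 13 was 5379 to 6436 CPM in HFSC and 1442 to 3102 CPM in ORS. In the sebaceous list 3 of 12 genes were higher in each direction (all genes: 17.9% and 17.0%). The triglyceride enzyme Dgat2 (2.49) and the microsomal transferase Mgst1 (1.92) were among those higher in HFSC. The cholesterol-esterifying enzyme Soat1 (-2.39) and the fatty acid elongase Elovl3 (-2.31) were higher in ORS. The 3 higher in ORS became 1 without ORS E341 or without HFSC L94.

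Basal keratins and hemidesmosome genes leaned towards HFSC, with 9 of 19 higher there and 3 in ORS (all genes: 17.9% and 17.0%). Their median was 1.08. Krt5 and Krt14, the keratin pair of basal cells, stood at 8766 ± 1567 against 3040.2 ± 534 CPM and 5182 ± 1343 against 1678 ± 211 CPM, with log2 fold changes of 1.53 and 1.60. Col17a1, the hemidesmosome collagen that anchors follicle stem cells, had 1.85, its integrin partner Itgb4 1.71 and the linker Plec 1.31. Itga6, an integrin often used to sort basal cells, was higher in ORS by a small margin, with 316, 363, 351 and 296 CPM in HFSC and 494, 373, 416 and 464 CPM in ORS (-0.39, adjusted p = 0.0371). P-cadherin, Cdh3, was also higher in ORS (-0.90), and E-cadherin, Cdh1, was not called (0.07). The 3 calls towards ORS became 1 without ORS E341 or without HFSC L136.

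Of 28 matrix genes tested (of 29 listed) 8 were higher in HFSC and 11 higher in ORS (all genes: 17.9% and 17.0%). Among them, collagen VI (Col6a1 above, and Col6a2 at 5.54), the glycoprotein Ecm1 (5.83), thrombospondin 2 (Thbs2, 5.62) and Sparc (2.93) were higher in HFSC. The basement membrane components Col4a1 (-2.43), Lamc1 (-2.61), Nid1 (-2.19) and perlecan (Hspg2, -2.37) were higher in ORS. So were versican (Vcan, -4.74) and fibrillin 2 (Fbn2, -4.70), 2 large matrix proteins. Vcan read 4.60, 0, 0.435 and 5.43 CPM in HFSC and 50.4, 50.9, 31 and 86.7 CPM in ORS.

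In the BMP pathway 10 of 22 genes tested were higher in HFSC and 4 higher in ORS (all genes: 17.9% and 17.0%). The median was 0.92. Of the ligands, Bmp2 (3.27) and Bmp6 (3.25) were higher in HFSC, and Bmp4 (-3.31) and Bmp7 (-1.43) higher in ORS. Bmp6 read 17.1, 3.45, 11.4 and 4.09 CPM in HFSC and 2.54, 0, 0 and 0.115 CPM in ORS, and Bmp4 read 2.79, 2.92, 0.124 and 0 and 4.64, 14.8, 38.7 and 10.4 CPM. The groups overlapped in neither gene. The Bmp4 call was lost with limma-voom and within the controls alone, and the Bmp6 call within the controls alone. None of the receptors Bmpr1a, Bmpr1b, Bmpr2 and Acvr1 was called.

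Id1, Id2 and Id3 are helix-loop-helix inhibitors induced by BMP signals. Id2 read 1389.9, 1356, 1396 and 1473 CPM in HFSC and 38.4, 22.6, 19.6 and 28.3 CPM in ORS, a log2 fold change of 5.71 ± 0.19 with little spread in either group (adjusted p = 3.62e-09). Id1 and Id3 were higher in HFSC at 2.18 and 1.78, and their relative Id4 was higher in ORS at -1.04. Of the secreted BMP antagonists, Grem1, gremlin, read 270.2, 409.9, 283 and 257 CPM in HFSC and 0, 0, 0.716 and 1.38 CPM in ORS (8.43), and Nog, noggin, was also higher in HFSC (4.99). The pseudoreceptor Bambi (2.88), the inhibitory Smad7 (1.82) and Smad9, a SMAD of the BMP branch (2.35), complete the 10.

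Of 17 TGF-beta genes 5 were higher in HFSC and 5 higher in ORS (all genes: 17.9% and 17.0%). Tgfb2 (above) and Tgfb3, the 2 ligands of the family beside Tgfb1, were both higher in ORS. Tgfb3 read 11.5, 2.72, 10.7 and 10.7 CPM in HFSC and 319, 256, 181 and 353 CPM in ORS (-5.01 ± 0.39), and Tgfb1 was not called (-0.44). The latent-form binding proteins split, Ltbp1 being higher in ORS (-3.73) and Ltbp2 higher in HFSC (4.56). Tgfbi, a secreted protein induced by TGF-beta, was higher in HFSC (3.56), and of the receptors Tgfbr1 (0.20) and Tgfbr2 (0.89) were not called. Without HFSC L95 the 5 calls towards ORS became 3.

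WNT ligands were called in 4 of 13 tested (of 15 listed), or 30.8%, against 34.9% of all genes. All 4 were higher in ORS, against 17.0% of all genes, and 9 had an unadjusted p under 0.05 in either direction. Wnt5a, a non-canonical ligand, read 8.65, 3.05, 2.92 and 9.01 CPM in HFSC and 62.4, 65.3, 69.5 and 47.3 CPM in ORS (-3.42), and Wnt6 and Wnt16 had -4.59 and -2.73. Wnt10b, a ligand of the growing follicle, was not called (-0.75). Without HFSC L136, 2 ligands were called higher in HFSC. Of 24 WNT receptors and targets tested 7 were higher in HFSC and 5 higher in ORS (all genes: 17.9% and 17.0%). On the deposited scale these counts were 3 and 12. The frizzled receptors Fzd5 (2.07), Fzd8 (1.88), Fzd3 (1.83) and Fzd6 (1.44) were among the 7.

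The classical WNT targets did not share a direction. Axin2, a negative regulator and the usual readout, was not called, with 30.8, 7.23, 30.04 and 28.8 CPM in HFSC and 21.3, 15.8, 15.7 and 17.5 CPM in ORS (0.27 ± 0.43). Myc, a growth-promoting transcription factor, read 215, 181, 207 and 158 CPM in HFSC and 8.82, 5.18, 0.189 and 5.73 CPM in ORS, without overlap (5.61 ± 0.59), whereas Ccnd1 was higher in ORS (above). The ubiquitin ligase genes Znrf3 (-1.29) and Rnf43 (-0.80), which remove frizzled receptors, were higher in ORS. The secreted antagonist Sostdc1, an ectodermal BMP and WNT inhibitor, was higher in ORS (-0.98), opposite to Dkk3 and Sfrp1.

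Of 12 hedgehog genes 4 were higher in ORS and 2 higher in HFSC (all genes: 17.0% and 17.9%). On the deposited scale these counts were 8 and 0. Ptch1, the receptor that is itself a target, read 6.31, 11.1, 21.1 and 12.9 CPM in HFSC and 109, 123, 80.5 and 135.5 CPM in ORS (-3.17 ± 0.32), and the effector Gli1 read 11.5, 10.1, 6.58 and 30.1 and 94.7, 79.8, 90.5 and 111 CPM (-2.86 ± 0.38). Neither gene overlapped between the compartments. The effector Gli2 (-1.01) was also higher in ORS, and the ligand Shh, made by the hair matrix, was not called. The co-receptors Cdon (1.31) and Gas1 (1.03) were higher in HFSC; both calls were lost on the deposited scale and within the controls alone.

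Notch genes were higher in HFSC in 5 of 12 tested (of 17 listed) and in ORS in 1 (all genes: 17.9% and 17.0%). Notch3, a receptor, read 74.6, 55.7, 67.2 and 81.7 CPM in HFSC and 3.11, 5.34, 6.90 and 1.12 CPM in ORS (4.13), and the target Hey1 had 4.57. Jag1, a ligand, was higher in HFSC (2.48) and its relative Jag2 higher in ORS (-0.88), while the target Hes1 was not called (0.18). In the FGF list 5 of 13 genes tested (of 16 listed) were higher each way (all genes: 17.9% and 17.0%). Beside Fgf18, the ligands Fgf1 (2.29) and Fgf5 (2.81), which ends hair growth, were higher in HFSC, and the receptors Fgfr1 (-1.07) and Fgfr2 (-0.73) were higher in ORS. Of 14 ERBB genes tested 2 were higher in HFSC and 1 higher in ORS, or 21.4% called against 34.9% of all genes. The ligand Tgfa (4.18) had the largest difference, 13.8 ± 9.90 against 0.145 ± 0.168 CPM. Erbb3 (0.41), Hbegf (1.71) and Areg (1.59) were not called.

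Immediate-early and stress-response genes, which also rise while tissue is dissociated, were higher in HFSC in 15 of 22, against 17.9% of all genes, with 1 higher in ORS and a median of 1.65. Atf3, a stress-induced factor, read 47.4, 103, 42.8 and 54.3 CPM in HFSC and 0.0357, 0.196, 0 and 1.54 CPM in ORS (6.22 ± 0.56). Dusp1, a MAP kinase phosphatase, had 4.81, Ier3 4.58, the mRNA-decay factor Zfp36 3.50 and the AP-1 factor Jund 1.77. Fos read 36.3, 355, 62.2 and 258 CPM in HFSC and 114, 50.6, 16.6 and 22.1 CPM in ORS, and Egr1 120.0, 255, 139 and 219 and 153, 242, 32.7 and 20.3 CPM. Both overlapped and were not called, and Egr3 was the 1 member higher in ORS (-2.45). The part of cell isolation in these values was not tested, and the count towards HFSC was 11 to 15 with 1 library left out.

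Chemokines and cytokines of keratinocytes were higher in HFSC in 8 of 14 tested (of 19 listed), against 17.9% of all genes. None was higher in ORS by limma, 10 had an unadjusted p under 0.05, and the median was 2.04. Cxcl12, the chemokine that binds CXCR4, read 150.5, 379.9, 398 and 439 CPM in HFSC and 3.61, 0, 4.03 and 0 CPM in ORS (7.75 ± 0.73), again with L136 lowest in HFSC. Ccl27a, a chemokine that draws T cells to skin, had 4.74, the epithelial cytokine Tslp 4.06, the IL-1 antagonist Il1rn 3.90, and Il34, a Langerhans cell factor, 2.31. The alarmins Il1a (0.10) and Il18 (0.32) were not called.

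Of 19 glycolysis genes 7 were higher in HFSC, against 17.9% of all genes, and 3 in ORS, which is near the 17.0% of all genes. The hexokinase Hk1 (2.71), the phosphofructokinase Pfkp (2.23) and Pdk1, which limits pyruvate entry into mitochondria (2.09), were higher in HFSC. The lactate transporter Slc16a1 (-1.51) and Ldhb (-1.30) were higher in ORS, and Ldha, a lactate dehydrogenase tied to follicle stem cells, was not called (489 ± 51.4 against 452 ± 68.2 CPM, 0.12). In the IGF list 3 of 13 genes tested were higher in HFSC and 2 higher in ORS (all genes: 17.9% and 17.0%). The binding proteins Igfbp3 (6.06) and Igfbp6 (4.44) were higher in HFSC. The imprinted RNA H19 read 0, 0, 1.74 and 0.703 CPM in HFSC and 69.5, 31.9, 29.8 and 28.2 CPM in ORS (-5.37). HOX genes, which mark body position, were called in 4 of 25 tested (of 31 listed), against 34.9% of all genes, with Hoxb9 higher in HFSC (4.19) and Hoxc5 and Hoxc8 among the 3 higher in ORS. Among guidance molecules the neuropilin Nrp2 (-4.49) and the receptors Robo1 (-3.16) and Robo2 (-3.52) were higher in ORS with Sema3a. Slit3 (3.09) and the plexin Plxna2 (2.63) were higher in HFSC. In all, 8 of 28 guidance genes were higher in HFSC and 9 in ORS, against 17.9% and 17.0% of all genes.

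Markers of other cells of the skin differed in level between the compartments. For the counts in this paragraph, 17.9% of all genes were higher in HFSC and 17.0% higher in ORS. The melanocyte, Schwann cell and reference gene lists were called in 16.7%, 25% and 30% of members tested, below the 34.9% of all genes. Fibroblast genes were higher in ORS in 4 of 7 tested (of 11 listed) and in none higher in HFSC, among them Dcn (decorin, 10.9, 0, 0 and 7.79 CPM in HFSC and 43.1, 39.3, 43.7 and 52.3 CPM in ORS) and Vim (vimentin, -2.69). The summed level of the fibroblast list was 31.6 to 91.3 CPM in HFSC and 90.5 to 151 CPM in ORS, overlapping at the edges. Of its defining markers Twist2 and Dpt had no read in any library, and Col3a1 and Pdgfrb had reads in 1 library each. The 4 calls became 2 without ORS E341 or without HFSC L94. Within the controls alone 1 was left, and within the libraries labelled knockout alone 1. Of the immune list, Cd74 and H2-Aa, class II antigen presentation genes, were higher in HFSC (4.69 and 2.41), and the pan-leukocyte marker Ptprc had no read in any of the 8 libraries. So did Cd207, the Langerhans cell lectin. The sum of the immune list, 6 of 12 genes tested, was 40.5 to 77 CPM in HFSC and 13.9 to 21.9 CPM in ORS. The melanocyte list summed to 204 to 310.4 CPM in HFSC and 73 to 76.9 CPM in ORS, without overlap, and Mitf, a melanocyte transcription factor, was the 1 of 6 members tested that was called (2.09). Mitf read 185, 281, 216 and 195 CPM in HFSC and 56.7, 52.8, 59 and 36.4 CPM in ORS. It held most of the sum in every HFSC library, so the gap between the sums is largely that of Mitf. The pigment genes Pmel, Tyrp1, Dct and Mlana were not called. The Schwann cell list summed to 22 to 40.5 and 2.64 to 14 CPM, with Mbp the 1 of 4 higher in HFSC (2.80). The red blood cell list summed to at most 6.96 CPM, with the globin gene Hba-a2, which has a near-identical copy, the 1 of 2 higher in HFSC (2.47). No gene of the endothelium, Merkel cell or smooth muscle lists was called, of 3, 2 and 3 tested by limma, and none had an unadjusted p under 0.05. Their sums were at most 18.3, 8.04 and 16 CPM in any library. The part of these cells in the matrix, BMP or cytokine values was not tested. Of 10 widely expressed reference genes, B2m, of the class I antigen complex, was higher in HFSC (2.68) and Ppia (-0.69) and Rplp0 (-0.32) higher in ORS, while Actb (-0.20), Eef1a1 (0.03) and Ywhaz (0.10) were among the 7 not called. On the deposited scale 9 of the 10 were higher in ORS.

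**Figure D4:**
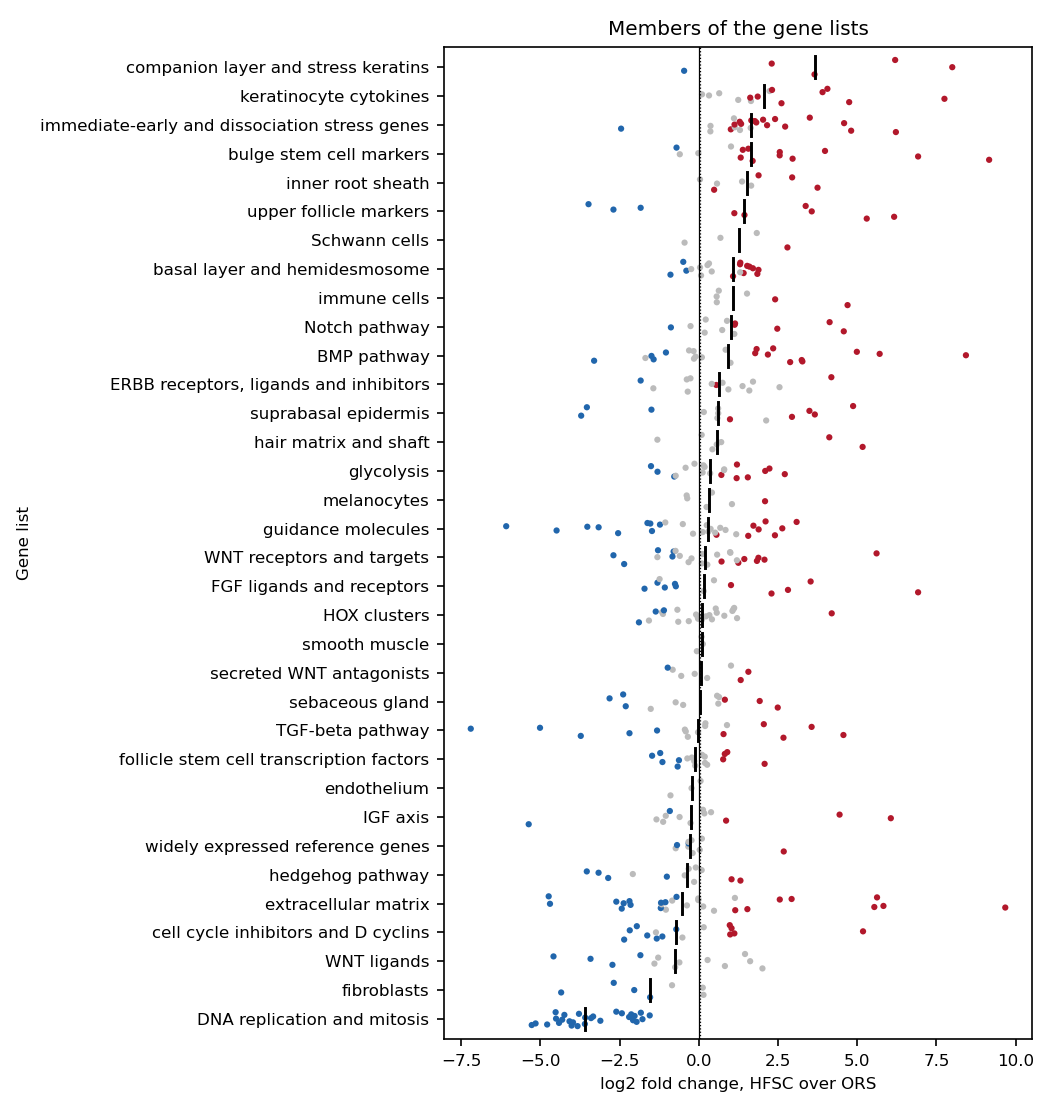
Each row is a gene list and each point a tested member at its log2 fold change of HFSC over ORS, red for called higher in HFSC, blue for called higher in ORS and grey for not called; the black bar is the median of the list and the dotted line the median of all genes (0.04). All points of the DNA replication and mitosis list are blue, and the cytokine list has no blue point. The WNT ligand list has no red point, and the other signalling lists hold both colours.

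The direction of some lists depended on the scaling, as did that of all genes. On the deposited scale 1140 of all 14548 genes tested were called higher in HFSC and 7024 higher in ORS. A lean of a list towards ORS on that scale is thus shared with all genes. On the deposited scale the basal list had 6 genes higher in HFSC and 8 higher in ORS, the Notch list 3 and 4, the glycolysis list 3 and 8 and the secreted WNT antagonists 0 and 3, in place of 9 and 3, 5 and 1, 7 and 3, and 2 and 1. BMP genes were then 10 and 10, HOX genes 1 and 11, and the kinase inhibitors and D cyclins 1 and 10. The bulge markers kept 7 against 3, the immediate-early genes 10 against 3, the cytokines 7 against 0, and the replication and mitosis genes 0 against 28. Among the genes named above as higher in one compartment, 15 lost the call when a single library was left out. They were Gli2, Itga6, Slc16a1, Barx2, Rnf43, Jag2, Nid1, Elovl3, Ppia and Rplp0 of those higher in ORS, and Krt16, Krt6b, Krt79, Fzd8 and Gata6 of those higher in HFSC. The highest adjusted p by limma over all their refits ran from 0.0903 (Krt6b) to 0.731 (Krt79).

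Finally, the compartments were compared within each genotype label. These fits share no library, but rest on 2 libraries a group. Among the libraries labelled knockout the compartment cannot be told apart from sex, since Xist was low in both HFSC and high in both ORS libraries. The controls alone called 3295 of 13545 genes (24.3%) and the libraries labelled knockout alone 2004 of 13580 (14.8%). Of 12994 genes tested in both, 3231 and 1945 were called, and the 1522 called in both make up 47.1% of the first list and 78.3% of the second, with the same direction in 1521. Cd34 had log2 fold changes of 8.70 in the controls and 9.62 in the libraries labelled knockout, Id2 5.51 and 5.90, Tgfb2 -6.15 and -8.26, and Mki67 -4.0 and -4.49.

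The interaction of compartment and genotype label was called in 4 genes (0.0275% of those tested), and 901 genes (6.19%) had an unadjusted p under 0.05. It measures how the labelled knockout effect in HFSC differs from that in ORS, for 2 different deletions, and it cannot be told apart from sex, which goes with the genotype label in HFSC. Krt6a read 1062, 819.9, 2083 and 1800.4 CPM in HFSC and 11.6, 33.1, 0.943 and 0.808 CPM in ORS, so the labelled knockouts were higher than controls in HFSC and lower in ORS (interaction 4.93 ± 0.57 on the log2 scale, adjusted p = 0.0292). Cst6 read 354, 556, 1752 and 632 and 76.9, 111, 2.11 and 3.54 CPM (6.08 ± 0.63, adjusted p = 0.0226), and Klk7, a skin protease that helps shed the outer layer, 92, 57.2, 318 and 110.2 and 11.9, 18.7, 0.113 and 0 CPM (6.16 ± 0.79, adjusted p = 0.0433). Both followed Krt6a. The count of 4 was not stable. It was 0 without ORS E358, HFSC L136, HFSC L94 or HFSC L95, 1 without either ORS control, 2 without HFSC L97, 15 without ORS E359, and 0 with limma-voom weights.

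**Figure D5:**
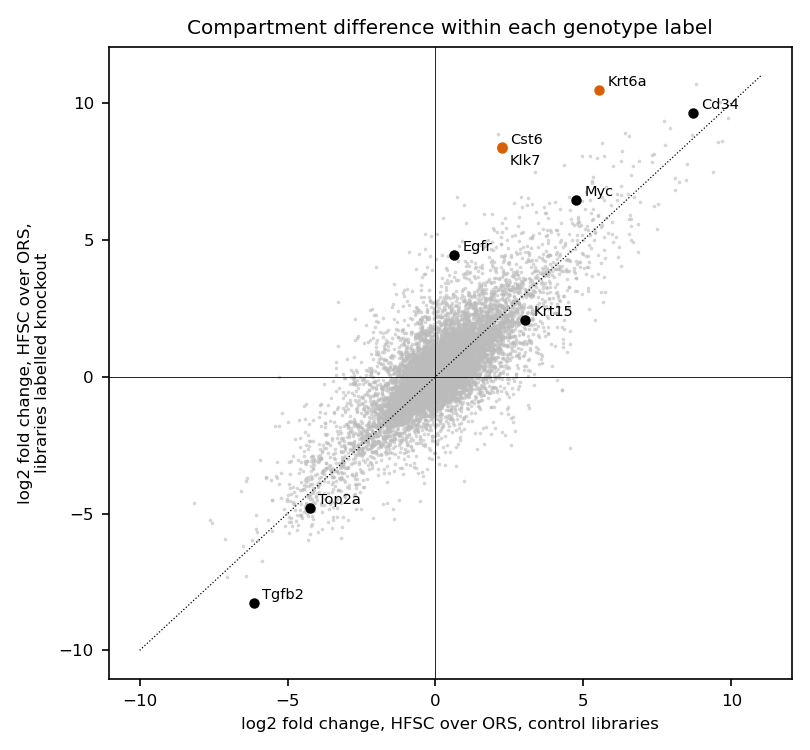
Each grey point is a gene at its log2 fold change of HFSC over ORS in the control libraries (horizontal axis) and in the libraries labelled knockout (vertical axis), and the dotted line marks equal values. Black and orange points are named genes, and orange marks 3 of the 4 genes with a called interaction, which lie above the line; Egfr lies at 0.64 and 4.45.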

How the data were processed

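The 4 HFSC and 4 ORS libraries were made with the PicoPure isolation kit and the SMARTer Ultra kit, per the labels' protocols, and sequenced as paired reads, per the series text. The authors deposited log2 values per gene and library (log2 reads per 1000000 of a library total, with 0.9 read for genes without a read). Trim Galore, DESeq2 and mm10 are named in the submitters' processing notes without their roles. Not given in the sources used here were the aligner, the counter, the annotation and strandedness. Whole reads were recovered (within 0.2 reads for at least 99.99% of values), rescaled to reads in genes and then by TMM computed in a script (30% of ratios and 5% of levels trimmed). Genes of chromosomes 1 to 19 were tested if 2 or more libraries had 10 reads after scaling to the median library, and if all together had 15.

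Differences were tested with limma 3.58.1 in R 4.3.3 (two-sided, trended and robust prior) on log2(CPM + 0.5), with compartment and genotype label as terms, on 5 residual degrees of freedom (4 for the interaction), with Benjamini-Hochberg adjustment. The scripts were tested on simulated data. The test fits a log scale because the deposited unit is log2. A fold against a group without reads uses 3 reads per library as its floor, which covers counting error only. The counts of replicate pairs were not alike (chi-square over its degrees of freedom of 41.5 to 140.2), so none was merged. Coordinates are those listed in the files.

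The members and gene lists were chosen with earlier results of these data known. Genes were named by a rule: the targeted gene and 3 label checks, the 12 largest called differences each way with a mean of at least 20 CPM and no overlap, the 6 most abundant called genes each way differing at least 2-fold, the first and up to 5 further members of each list, and the 5 smallest interaction p-values. This gave 211 genes, of which 15 lost their call when 1 library was left out and are mostly given by list counts only. A few of these genes are not reported here. Further list members were chosen after their values were seen. Alternatives changed the pseudocount, filter, scaling, test, depth, design and genes, and left out each library.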

Additional observations from a re-analysis of the deposited data

Results flagged for a closer look

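In groups of 4 libraries a value was marked when its gap to the nearest other value, on the log2(CPM + 0.5) scale, took up more of the range of the group than Dixon's 95% critical value for 4 values. Of 123 such groups whose levels are given above, 13 were marked, and chance marks about 1 in 20. HFSC L136 was low for Cxcl12 (150.5 CPM, the others from 379.9 to 438.5) and Fcgbp (187 CPM, the others from 901 to 1229.9) and high for Cyp2b10 (368 CPM, the others from 88.9 to 112). HFSC L94 was high for Cd34 (2167 CPM, the others from 1361 to 1469) and low for Krt24 (410.5 CPM), Axin2 (7.23 CPM, the others from 28.8 to 30.8) and Tgfb3 (2.72 CPM, the others from 10.7 to 11.5). ORS E341 was high for H19 (69.5 CPM, the others from 28.2 to 31.9), Bmp6 (2.54 CPM) and Krt25 (0.107 CPM, where the others had no read). ORS E358 was high for Foxp1 (272 CPM), and ORS E359 for Tnc (622 CPM) and Krt73 (4.62 CPM, where the others had no read).

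The labelled knockout effect differed between the compartments by limma's interaction term in 4 genes, among them Krt6a (4.93 on the log2 scale), Cst6 (6.08) and Klk7 (6.16). In HFSC the genotype label goes with sex, so the term cannot be told apart from it. Leaving out any 1 of the 8 libraries changed the count of such genes.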

How the results depend on the processing

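The count of 5084 calls stayed within 1.5 times under 21 of 24 refits, and leaving out 1 library gave 4101 to 4931. The exceptions were the deposited scale (8164 calls, 1140 higher in HFSC and 7024 higher in ORS), the controls alone (3295, with 1620 higher in HFSC) and the libraries labelled knockout alone (2004, with 1173 and 831), which hold fewer samples. Asking also for a 2-fold difference left 3573 calls, 1520 of them higher in ORS. The 4 interaction calls became 2 with a pseudocount of 2 CPM, 0 without the filter on low reads, 0 with limma-voom and 0 to 15 with 1 library left out; the cause was not tested. Among 190 called genes named here, 4365 of 4554 refitted values kept direction and call, 188 lost the call and 1 turned in sign, Rbl2 at -0.0058 on the deposited scale. On that scale genes that were not called above turned negative, where the median of all genes was -0.75: Bmpr2 (-0.83), Lhx2 (-0.79), Tgfbr1 (-0.76), Ldha (-0.87), Cdh1 (-0.92), Eef1a1 (-0.96), Erbb3 (-0.57), Krt10 (-0.80), Ywhaz (-0.89) and Hes1 (-0.79). Npnt turned to 0.72 in the controls alone. No paired analysis was possible because no HFSC library shares a name with an ORS library. The HFSC libraries hold fewer reads in genes, so low genes are less precise there; reads thinned to the smallest library gave 5045 calls.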
